A study of Mus musculus with 6 samples.

Results

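The genes described here were 8 enzymes and enzyme subunits of mitochondria, amino acids and nucleotides: Atp5h, Cox15, Idh2, Nme4, Gatm, Phgdh, Ggt1 and Impdh1. They were taken from the study's supplementary list of differentially expressed mRNAs, which pairs 357 array probes with names. Each gene was read by the 1 probe named for it there, out of 39430 mRNA probes on the array. Any further probes of these genes could not be named outside that list, and how they read is not known. That list was made from the diet contrast of the same arrays, with criteria of at least 2-fold and p of at most 0.05, so the diet differences of these genes are given as a description and no test is made of them. All 8 probes passed the filter on low signals, as did 29340 mRNA probes in all. Nearest to the 2-fold limit on the authors' log2 values lay Idh2, with a difference of 1.01, Atp5h with 1.10 and Impdh1 with 1.11, where 2-fold equals 1.

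The mitochondrion oxidises fuel carbon in the tricarboxylic acid cycle and passes the electrons along the respiratory chain, whose last complex is cytochrome c oxidase. The proton gradient this builds drives ATP synthase. Mitochondria and cytosol also make serine, creatine and nucleotides, and enzymes on the cell surface recover the amino acids of glutathione. The artery wall holds smooth muscle cells, endothelial cells, fibroblasts and, in atherosclerosis, infiltrating leukocytes, and creatine synthesis and glutathione breakdown are best known from kidney.

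The arrays came from aortas of male mice on the C57BL/6 background, homozygous for the apoE(-/-) deletion that all animals shared, and hence lacking apolipoprotein E and prone to atherosclerosis. The normal diet group ate normal chow and the high-fat diet group a diet with 20% fat and 2.5% cholesterol, both for 8 weeks. Each diet had 3 arrays, each hybridised with the RNA of a separate aorta drawn at random from a larger group. Age was not given in the sources used here, and since both groups lacked apoE, no wild-type aorta was measured. An aorta holds many cell types, so a lower share of a cell type and less RNA per cell cannot be told apart in these values.

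Scanner output placed normal diet replicates 1 and 3 on slide 1, and normal diet replicate 2 with all 3 high-fat diet arrays on slide 2. The median net signal of the negative controls was 31.5 and 32.3 on the slide 1 arrays and 12.9 to 13.8 on the slide 2 arrays. On slide 1 62.6% and 64.4% of probes were detected, and on slide 2 72.4% to 76.0%, and no spot was saturated. Probes could be named only through the study's lists, so the tissue could not be checked by markers of smooth muscle, endothelium, fibroblasts, adipocytes or heart, none of which had a named probe.

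Each gene was read by an oligonucleotide of 60 bases, and its last 30 bases are shown because the signal of each gene rests on this 1 sequence. Capitals mark the polyadenylation signal AATAAA, the letters that usually precede the end of an mRNA.
Atp5h: ggccgacatgaAATAAAacatttaaatagt
Cox15: ttttaatgttttcaacagtctgtccacaat
Idh2: gccatatttagctactaaaaagctcttcgc
Nme4: tgtccttgtgtacaaaagtgccagacaacc
Gatm: tacttcttttttcctaaatgggacaaagac
Phgdh: taatagctagtaaagaaccttacctccaaa
Ggt1: ctgaagattcggcaccaccatacagaagtc
Impdh1: taaataatctgAATAAAtcaagcagttatc
The probes of Atp5h and Impdh1 held the signal in these bases. The signal or its variant ATTAAA stood in the last 30 bases of 13.7% of all mRNA probes. Over the whole probe, GC content was lowest in Cox15, at 28.3%, and highest in Ggt1, around a median of 41.7% over mRNA probes. The exon and position in the genome that each probe matches were not analysed here.

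Of the 8 genes, 7 had a higher signal on the high-fat diet and Ggt1 a lower one, and for all 8 the arrays of the diets did not overlap. Among all kept mRNA probes, 2.21% were at least 2-fold higher with a limma p of at most 0.05 and 0.774% were lower, or 2.99% in all; since the genes were chosen by this contrast, nothing is read from their count of 8 against it. Groups without overlap made up 19.8% of mRNA probes, 10.7% higher and 9.08% lower. At a Benjamini-Hochberg adjusted limma p under 0.05, 0 of the 8 were called, against 0.00341% of mRNA probes, a single probe. An unadjusted limma p under 0.05 was found for 8 of the 8 and 13.2% of mRNA probes. The 8 were chosen by a p of this same contrast, so nothing is read from that count. The median difference over all kept mRNA probes was 0.04 on the log2 scale. Values below are quantile-normalized log2 signals of the processed intensity, given in the order of the replicates, and differences are high-fat minus normal diet means with the standard error (SE) of the limma fit over 3 arrays per diet.

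**Figure D1:**
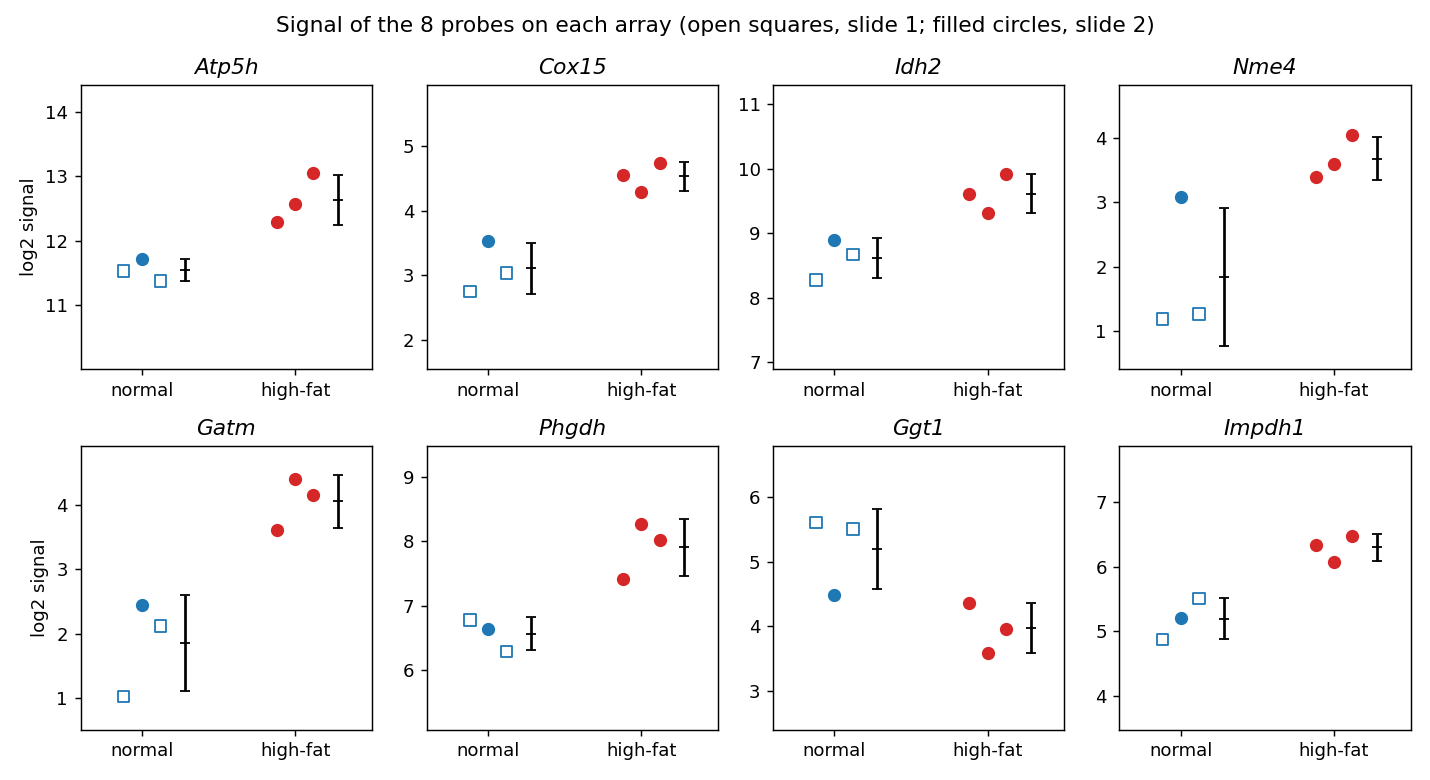
Log2 signal of the probe of each gene on the 6 arrays (vertical axes, each spanning the same number of log2 units), by diet (horizontal axis), with open squares for slide 1 and filled circles for slide 2; bars give the mean ± SD of 3 arrays. In 7 panels the high-fat diet arrays lie above all normal diet arrays and for Ggt1 under them, by gaps of 0.12 (Ggt1) to 1.16 (Gatm).

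Among the respiratory chain genes, Atp5h encodes subunit d of the peripheral stalk of ATP synthase. Its log2 signal was 11.53, 11.72 and 11.38 on the normal diet and 12.28, 12.56 and 13.05 on the high-fat diet. The diets were separated by 0.56, and high-fat diet replicate 3 was the highest array. The means were 11.54 ± 0.17 and 12.63 ± 0.39 (SD, n = 3), a difference of 1.09 (SE 0.24). Cox15 makes heme A, the prosthetic group of cytochrome c oxidase. Its probe read 2.75, 3.53 and 3.04 on the normal diet and 4.56, 4.30 and 4.75 on the high-fat diet, which gives a difference of 1.43 (SE 0.24). Normal diet replicate 2 and all 3 high-fat diet arrays had it well above background, so the normal diet values were poorly measured.

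Idh2, the mitochondrial isocitrate dehydrogenase that makes NADPH, gave 8.28, 8.89 and 8.67 on the normal diet. On the high-fat diet it gave 9.60, 9.32 and 9.92, from means of 8.61 ± 0.31 to 9.61 ± 0.30 (SD, n = 3), a difference of 1.00 (SE 0.24). Every high-fat diet array was above every normal diet array, and normal diet replicate 2, on the shared slide, was the nearest to them. Idh2 and Atp5h were well above background on all 6 arrays. On the arrays, the processed intensity of Atp5h ran from 2251 to 8863 and that of Idh2 from 284 to 993, each about 10 times the error that the software gave the spot (ratios of 9.94 to 10.0).

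Of the nucleotide enzymes, Nme4 is the mitochondrial nucleoside diphosphate kinase, which moves phosphate from ATP to other nucleoside diphosphates. Its log2 signal was 1.19, 3.08 and 1.27 on the normal diet and 3.39, 3.59 and 4.05 on the high-fat diet. Normal diet replicate 2 lay 0.31 below the lowest high-fat diet array, while the slide 1 arrays lay much lower. All high-fat diet arrays had Nme4 well above background and none of the others did, so the size of the measured difference of 1.83 (SE 0.50) is uncertain. Setting the high-fat mean against, for each normal diet array, the higher of its lowest signal well above background and the signal of the probe itself gives 2.30-fold. Those lowest signals were 3.09, 0.94 and 0.96, so only the reading of normal diet replicate 1 was raised, and the value is no lower limit. Probes not well above background reached log2 signals of 4.23, 3.48 and 4.37 on the normal diet arrays, and the high-fat mean of Nme4 was 3.68.

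Impdh1 encodes the inosine monophosphate dehydrogenase that commits purines to guanine nucleotides. It read 4.87, 5.20 and 5.51 on the normal diet and 6.34, 6.07 and 6.48 on the high-fat diet. The difference was 1.11 (SE 0.22), from 5.19 ± 0.32 to 6.30 ± 0.20 (SD, n = 3), with all arrays well above background. The lowest high-fat diet array stood 0.57 above the highest normal diet array.

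In amino acid metabolism, Phgdh catalyses the first step of serine synthesis from glycolysis. The Phgdh probe gave 6.78, 6.63 and 6.29 on the normal diet and 7.42, 8.27 and 8.02 on the high-fat diet, from means of 6.56 ± 0.25 to 7.90 ± 0.44 (SD, n = 3) and a difference of 1.34 (SE 0.26). High-fat diet replicate 1 was the lowest of its group and still 0.64 above the normal diet arrays. Gatm, the mitochondrial enzyme of the first step of creatine synthesis, read 1.03, 2.44 and 2.12 against 3.60, 4.40 and 4.16. Its measured difference was 2.19 (SE 0.39), but no normal diet array had the Gatm probe well above background. The rule used for Nme4 gives 2.84-fold, again no lower limit, the high-fat mean being 4.05. The raw readings were small: the processed intensity of Gatm was 2.55, 5.07 and 4.54 on the normal diet, where the error of the spot was 2.57, 1.89 and 3.08. High-fat diet arrays read 11.5, 27.6 and 18.9.

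Ggt1, the gamma-glutamyltransferase that splits glutathione on the cell surface, went the other way. It read 5.61, 4.48 and 5.51 on the normal diet and 4.36, 3.59 and 3.96 on the high-fat diet. The means were 5.20 ± 0.62 and 3.97 ± 0.39 (SD, n = 3), a difference of -1.23 (SE 0.35), with the probe well above background on all 6 arrays. The gap between the diets was 0.12, the smallest of the 8, with normal diet replicate 2 close to high-fat diet replicate 1.

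Because slide 1 held normal diet arrays only, the slide and the diet cannot be told apart for normal diet replicates 1 and 3, and each gene was also read against normal diet replicate 2, the only control on the slide of the high-fat diet arrays. These are differences from 1 array, with no test. All 8 genes kept their direction. Of the 5 genes well above background on all 6 arrays, Phgdh differed by 1.27 and Impdh1 by 1.10, at 2-fold or more, while Atp5h had 0.91, Idh2 0.73 and Ggt1 -0.51. Against the slide 1 arrays these were 1.37 for Phgdh, 1.11 for Impdh1, 1.18 for Atp5h, 1.14 for Idh2 and -1.59 for Ggt1, so each lay nearer to 0 on the shared slide, Impdh1 by the least. Cox15, well above background on replicate 2 but not on slide 1, differed by 1.00 from that array. Gatm and Nme4 were not well above background on replicate 2 either, and their measured differences of 1.61 and 0.60 stand against a reading that the flags do not separate from background. At least 2-fold above replicate 2 were 2.98% of kept mRNA probes, and 0.794% were at least 2-fold below it. The median over kept mRNA probes in this reading was 0.05.

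The differences also depended on how background was removed. With the normexp method, which models background and then adds an offset of 50 to every signal, the difference was 1.02 for Atp5h, 0.99 for Phgdh and 0.89 for Idh2. It was 0.49 for Impdh1, -0.38 for Ggt1, 0.27 for Cox15, 0.26 for Gatm and 0.20 for Nme4. Signs were unchanged for all 8. Atp5h alone stayed at 2-fold or more, in a setting where 0.419% of mRNA probes were higher by both criteria. An offset of 50 exceeds every intensity of Ggt1, Cox15, Gatm and Nme4, which reached 41.7, 28.5, 27.6 and 17.6, and the normal diet intensities of Impdh1, 24.6 to 39.4, so those differences shrink by construction.

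**Figure D2:**
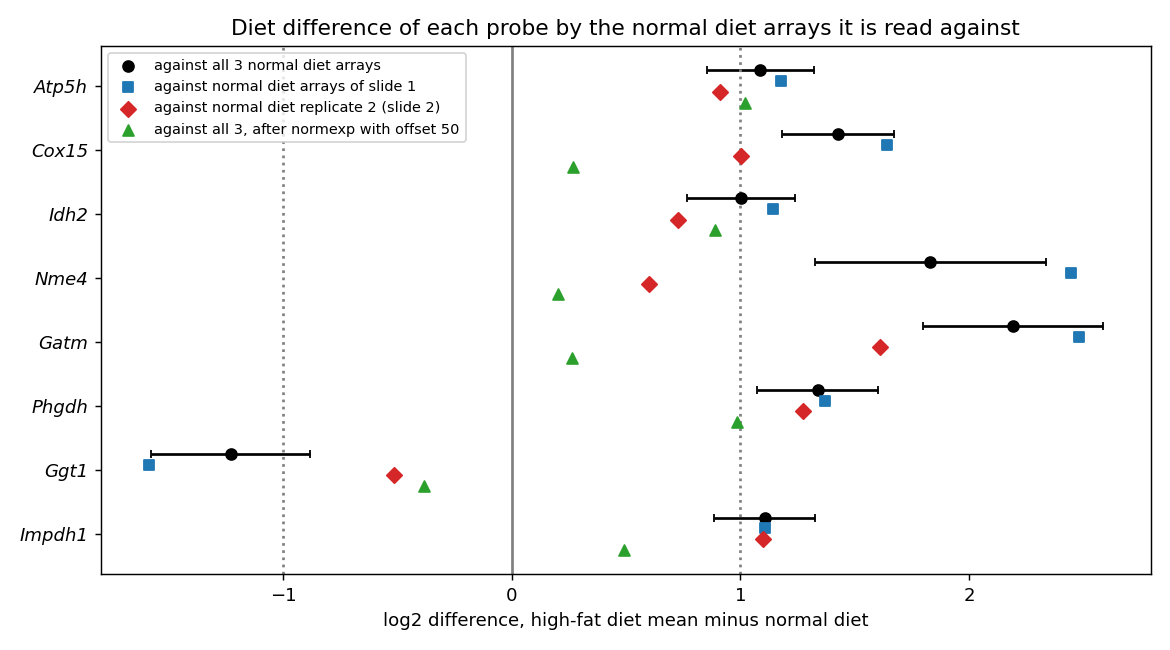
Log2 difference of the high-fat diet mean (horizontal axis) for each gene (vertical axis), against all 3 normal diet arrays with the SE (black), the slide 1 normal diet arrays (blue), normal diet replicate 2 on slide 2 (red) and all 3 after normexp (green); dotted lines mark 2-fold. Red points lie nearer to 0 than blue points, and for Cox15, Nme4 and Gatm the blue points rest on arrays where the probe was not well above background, as do the red points of Nme4 and Gatm.

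Other probes on the array carried sequences close to the Phgdh and Atp5h probes and gave readings of their own. All 91188 probes were compared with the 8 by BLAST alignment, which allows gaps and has a limit on matches expected at random. A probe was called related when at least 40 of 60 bases were identical, and the related probes aligned without gaps. The Phgdh probe had 5 related probes, with 40 to 51 identical bases, and all 5 stand in the study's lists of changed mRNAs or lncRNAs, so their direction was also chosen by this contrast. Of these, 1 mRNA probe is named for Gm6756, which RefSeq gives as a transcribed pseudogene, 1 lncRNA probe carries an accession that RefSeq pairs with Gm6756, 1 lncRNA probe is named n415399 and 2 mRNA probes have no gene name.

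The Gm6756 mRNA probe, with 51 identical bases, read 6.42, 5.82 and 5.70 on the normal diet and 6.66, 7.64 and 7.40 on the high-fat diet, which gives a difference of 1.26 (SE 0.31). Over the 5 related probes the differences were 1.09 to 1.33, those from normal diet replicate 2 were 1.28 to 1.64 and those after normexp 0.58 to 0.85. Their arrays did not overlap between the diets, and 4 of the 5 were highest on high-fat diet replicate 2, as the Phgdh probe was. How far the Phgdh probe bound transcripts of Gm6756 or of the other related sequences, and the reverse, was not tested, so the Phgdh value is uncertain as a measure of that gene alone.

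Atp5h had 1 related probe, with 54 identical bases and no name, outside the study's lists. It was found by its likeness to a probe chosen by diet, and whether both bind the same transcript was not tested, so its values are no independent support. It read 7.13, 7.12 and 7.08 on the normal diet and 7.70, 8.01 and 8.43 on the high-fat diet. The arrays did not overlap and the difference was 0.94 (SE 0.22), or 0.93 from normal diet replicate 2. Its high-fat diet arrays ranked as those of the Atp5h probe did, replicate 3 highest and replicate 1 lowest. The probes of Cox15, Idh2, Nme4, Gatm and Impdh1 matched no other probe in more than 25 bases, and no match was found for Ggt1 within the limit of the search.

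**Figure D3:**
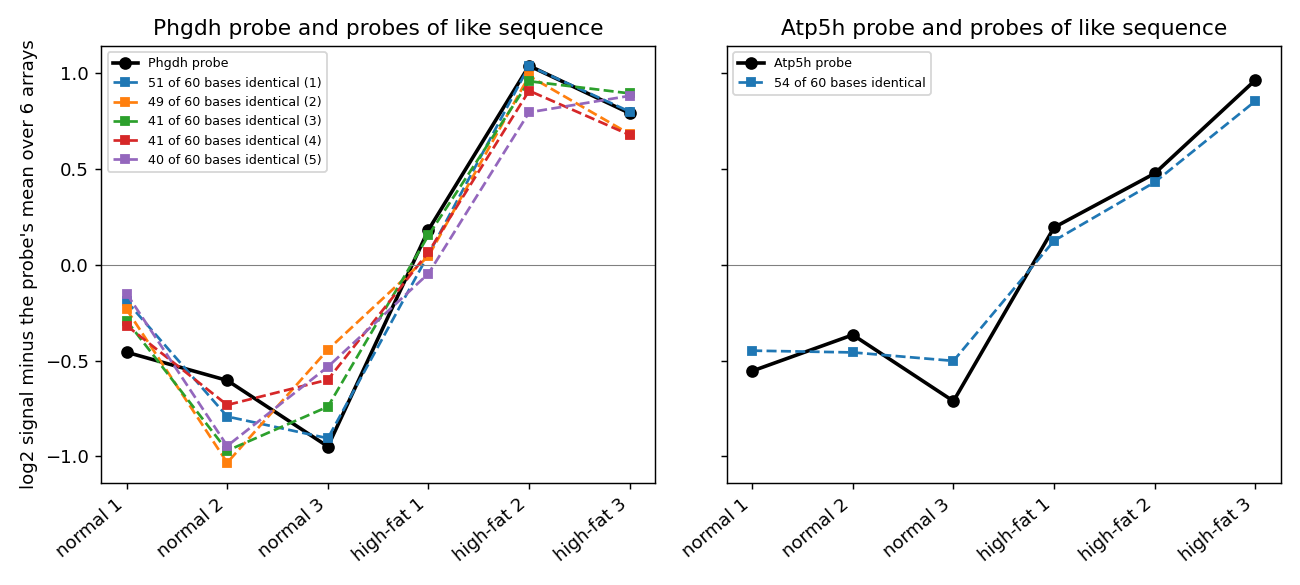
Log2 signal minus the mean of the same probe over 6 arrays (vertical axis) on each array (horizontal axis), for the Phgdh and Atp5h probes (black) and for probes of like sequence (dashed). All 5 probes related to Phgdh and the 1 related to Atp5h are higher on every high-fat diet array than on any normal diet array.

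The high-fat diet arrays also differed among themselves. Of the 7 higher genes, Atp5h, Cox15, Idh2, Nme4 and Impdh1 were highest on high-fat diet replicate 3, while Gatm and Phgdh were highest on replicate 2. Among the 3133 kept mRNA probes that were higher without overlap, replicate 3 was the highest array for 44.7% and replicate 2 for 33.9%, so no grouping of the genes is read from this order. Ggt1 was lowest on replicate 2. Across the 6 arrays, Pearson's r of the log2 signals lay between 0.76 and 0.98 for the 21 pairs among the 7 higher genes and between -0.95 and -0.74 for the 7 pairs with Ggt1. These values describe 6 arrays that share the diet and slide differences for which the genes were chosen.

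For 6 of the genes, the named probe most like each over the 6 arrays is given, out of 283 probes with a gene name. By Pearson's r, Atp5h was most like Abcb8, a mitochondrial transporter, with 0.99. Nme4 was most like 2310067P03Rik with 1.00 and Ggt1 like Mapk15 with 1.00. For Gatm it was Rsph3a with 0.97, for Phgdh the neuropeptide gene Npy with 0.98 and for Impdh1 Pitpnc1 with 0.98. All of these probes come from the list chosen by diet on the same arrays.

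The wider pathways could be read for few genes. The lists of ATP synthase, cytochrome c oxidase and its assembly, the tricarboxylic acid cycle, serine synthesis, creatine, glutathione, purine synthesis and nucleoside diphosphate kinases held 124 genes, and only Dpep2 could be named beside the 8. Dpep2 is a membrane dipeptidase. It read 3.79, 5.01 and 4.40 on the normal diet and 5.90, 6.66 and 5.63 on the high-fat diet, which gives a difference of 1.66, or 1.05 from normal diet replicate 2 and 0.67 after normexp, with 2 normal diet arrays past the background flag. No value is given for the other subunits of ATP synthase, for Psat1 and Psph of serine synthesis or for Gamt of creatine synthesis, whose probes could not be named.

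A further list of 10 mitochondrial genes was drawn from the study's list itself, so neither the direction nor the size of its differences is independent evidence. By both criteria 9 of them were higher and 1 was lower with the high-fat diet, beside 2.21% and 0.774% of mRNA probes. The median over the 10 was 1.19, which the 2-fold limit of the list keeps far from the 0.04 over all kept mRNA probes, so nothing is read from it. In fatty acid oxidation, Cpt2, which restores acyl-CoA inside mitochondria, was higher by 1.30, the electron carrier gene Etfdh by 1.04 and the acyl-CoA dehydrogenase gene Acad11 by 1.21. Cpt2 read 9.07, 9.27 and 9.34 on the normal diet and 10.40, 10.25 and 10.94 on the high-fat diet, without overlap.

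Among the carriers of the inner membrane, Slc25a42, which imports coenzyme A, was higher by 1.48. The signal of Slc25a1, the citrate carrier, was 11.27, 10.86 and 10.65 on the normal diet and 9.50, 9.60 and 10.06 on the high-fat diet, which gives a difference of -1.21, and -1.14 from normal diet replicate 2. Slc25a5, an ADP/ATP carrier, had a measured difference of 2.03, but no normal diet array had it well above background. The same rule gives 2.53-fold, again no lower limit. The others were Abcb8 (1.30), the chaperonin gene Hspe1 (1.06), Chchd10 (1.02) and Adhfe1 (1.17). Against normal diet replicate 2 the 9 higher genes had measured differences of 0.94 (Abcb8) to 1.92 (Slc25a5, not well above background there), with a median of 1.25. Of the 9, 7 were at 2-fold or more, beside 2.98% of kept mRNA probes. The genes were chosen by diet, so nothing is read from this count. After normexp the 9 differences were 0.23 (Slc25a5) to 1.32 (Slc25a42), with a median of 0.98.

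High-fat diet replicate 3 was the highest array for 8 of these 9 genes and for 44.7% of the higher mRNA probes without overlap, with Slc25a5 highest on replicate 2. The macrophage markers Cd68 and Clec7a, the 2 of 8 with a named probe, were highest on replicate 2, as were Gatm, Phgdh, Dpep2 and 33.9% of those mRNA probes. Cd68 was higher by 2.11 and Clec7a by 2.12 on the high-fat diet, by 2.87 and 3.38 from normal diet replicate 2, and by 1.15 and 1.16 after normexp. The log2 of their summed signal ran from 5.17 to 7.15 on the normal diet, with replicate 2 lowest, and from 7.94 to 8.87 on the high-fat diet, and neither marker was at 0 on any array. Their part in the differences of the 8 genes was not tested. The kidney tubule gene Lrp2, in a marker list that also holds Gatm and Ggt1, passed the background flag on 1 normal diet array only. Its measured difference was 3.34, with 1.17 from normal diet replicate 2 and 0.79 after normexp, while Gatm and Ggt1 went opposite ways.

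**Figure D4:**
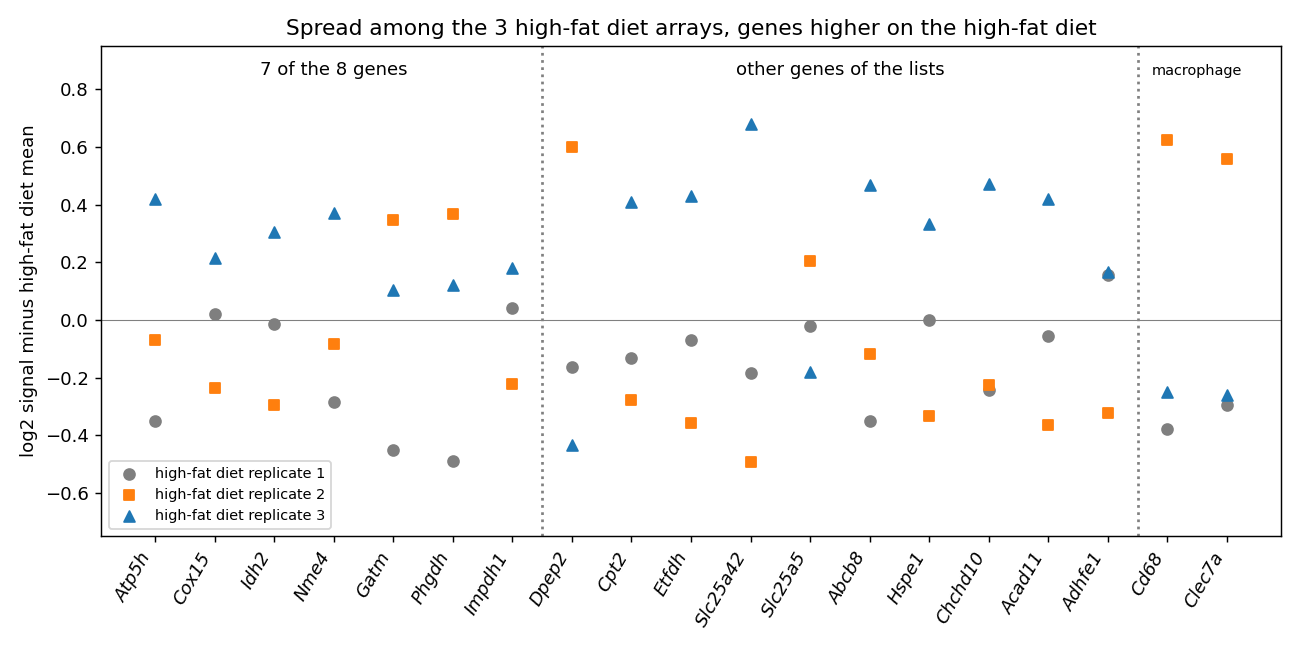
Log2 signal of each high-fat diet array minus the mean of the 3 (vertical axis) for genes higher on the high-fat diet (horizontal axis): 7 of the 8 genes, other genes of the pathway lists and the macrophage markers. Replicate 3 (triangles) is highest for 5 of the 7 and 8 of the 9 other mitochondrial genes, and replicate 2 (squares) for Gatm, Phgdh, Slc25a5, Dpep2, Cd68 and Clec7a.

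The promoters were searched because 7 of the 8 genes were higher together. In the 250 bases before each start in RefSeq, on both strands, the NRF1 motif of nuclear genes for mitochondrial proteins stood in 1 of the 8, Atp5h, and in 3.74% of 32851 promoters. The ETS motif CCGGAAG was also found in Atp5h alone, against 6.91% of promoters. The NF-Y motif CCAAT stood in Atp5h, Idh2, Gatm, Phgdh and Ggt1, and in 33.8% of promoters. No match was found for the estrogen-related receptor motif AAGGTCA (4.08% of promoters), the ATF4 motif TGATGNAA (3.45%) or the E-box CACGTG (6.02%). For genes with several listed starts, as Ggt1 and Impdh1 have, a match in any of them counted, and no motif holds the letters of another.
The stretches of 60 bases around the matches in a respiratory chain gene and a cycle gene are shown, with the motif in capitals, in the GRCm38.p6 build on the minus strand, at chr11:115420028-115420087 for Atp5h and chr7:80115362-80115421 for Idh2.
Atp5h: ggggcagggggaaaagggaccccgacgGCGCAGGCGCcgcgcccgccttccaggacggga
Idh2: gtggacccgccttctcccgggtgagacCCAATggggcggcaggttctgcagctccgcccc
The Atp5h match began 141 bases before the start and the Idh2 match 44. A match in letters is a description of the sequence, and binding was not measured.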

How the data were processed

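RNA from 6 aortas was labelled with the single dye Cy3 and hybridised to 1 array each. The authors deposited background-subtracted intensity values per spot from Feature Extraction 10.7.1.1 (version as in the submitters' files), and a table of log2 values that their methods describe as quantile normalized. The labels and the methods name different RNA kits. Groups and replicate numbers came from the sample labels. The genes and lists were chosen with earlier results of these data known.

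From the intensity, control spots were left out, as were outlier spots unless all spots of a probe were outliers. The probes of the 8 genes had 1 spot each, so none of their readings was left out. Spots of a probe were averaged, a floor of 1 was set and log2 values were quantile normalized. Probes detected in at least 0.5 of spots on all 3 arrays of at least 1 diet were kept, 64467 of 91188. Differences were fitted over these probes with limma 3.58.1 (lmFit and eBayes) in R 4.3.3, and summarised in Python 3.11.15 with pandas 2.3.3. In a simulation over 64467 probes, 191 of 200 probes changed by 2 on the log2 scale were counted by both criteria, with 556 unchanged probes. The simulation had no slide effect and a change larger than that of most of the 8 genes, so these counts do not carry over to them. Related probes were found with BLAST 2.17.0. Precision is limited by having 3 arrays per diet, and p-values measure the spread between these samples only. Named genes are the 8, probes related to them and list genes with a named probe, less items not reported here. Only the probe and symbol columns of the study's lists were used; its fold changes and p-values were not. The alternatives were normexp, scaling to the 75th percentile, the authors' log2 values, outlier spots kept, other filters and thresholds, the methods' t-test, each array left out, and the slide or the replicate number as a block.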

Additional observations from a re-analysis of the deposited data

How the results depend on the processing

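No direction reversed among the 8 genes under any alternative run, but the direction itself was chosen by this contrast. The filters, the thresholds, the t-test and the replicate block could not change the difference of a gene. Keeping outlier spots could change it only through normalization, since each gene had 1 spot per array. Of the 8 genes at 2-fold or more, 1 remained after normexp, 4 with the slide as a block and 7 with 75th percentile scaling, where Idh2 had 0.97. Because slide 1 held normal diet arrays only, the slide block gives the same differences as the reading from normal diet replicate 2. Atp5h had 0.91 and Cox15 1.00 in both, so the block is no further result. With each array left out the number was 6 to 8: without high-fat diet replicate 3 Atp5h had 0.88 and Idh2 0.85, and without normal diet replicate 1 Idh2 had 0.83 and Impdh1 0.94. The 4 genes measured at 2-fold or more from normal diet replicate 2 (Cox15, Gatm, Phgdh and Impdh1) became 0 after normexp and 3 to 4 with a high-fat diet array left out, where without replicate 1 Cox15 fell to 0.99 and Atp5h reached 1.08. The 876 mRNA probes that met both criteria became 2702 at 1.5-fold, 1 by adjusted p alone, 172 after normexp, 473 when detected on all 6 arrays and 358 by the methods' t-test, and 618 to 2197 with an array left out, the highest without normal diet replicate 2. The 14 list genes other than the 8 that met both criteria became 0 by adjusted p alone, 7 after normexp and 11 to 14 with an array left out. Same-numbered arrays did not deviate together (correlations of -0.26, -0.20 and -0.03), so the numbers pair no arrays. With the replicate block, 8 genes, 14 list genes and 981 mRNA probes were counted. Signal over background limits Cox15, Nme4 and Gatm, and a single control array on slide 2 limits all 8. Other causes were not tested.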
